A study of Homo sapiens with 12 samples.

Results

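The genes described here are 8 genes by which a beta cell takes up glucose, phosphorylates it and turns its metabolism into an electrical signal: the hexokinases HK1 and HK2, the glucose transporters SLC2A1, SLC2A2 and SLC2A3, the glucose-6-phosphatase subunit G6PC2, and the subunits ABCC8 and KCNJ11 of the ATP-sensitive potassium (KATP) channel. They were taken by gene symbol, and all 8 were found among the 35337 genes of the table. Of these, 22707 genes had reads in at least 1 library.

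In a beta cell, glucose enters through transporters of the SLC2A (GLUT) family and is phosphorylated to glucose 6-phosphate, and its breakdown raises ATP. ATP closes KATP channels, the membrane depolarises, calcium enters and insulin is released. G6PC2, an islet-specific enzyme of the endoplasmic reticulum, runs the phosphorylation step backwards and so sets how much glucose is needed to start this chain.

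RNA was measured in EndoC-βH3 cells, a single human beta-like line of fetal pancreatic origin that proliferates through hTERT and SV40 large T antigen, which a tamoxifen-activated CreER recombinase can excise. The labels give the genotype of all samples as WT, and all cells were kept in medium with 1 g/L glucose. There were 6 libraries of senescent cells, treated with 4-hydroxy tamoxifen for 3 weeks, and 6 of control, non-senescent cells without it. Batch A held 2 libraries of each group, and the larger batch B held 4 of each. The question was how gene expression changes when these cells become senescent.

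Libraries were made by CEL-seq, which reads the 3′ end of each transcript, and held 8873569 to 17106776 reads in batch A and 4672924 to 7063264 in batch B. Values are normalised read counts, that is, reads divided by a size factor of the library. MKI67, a proliferation gene, was lower in senescent cells (log2 fold change -2.83 ± 0.14, SE) and CDKN1A, the p21 cell cycle inhibitor, was higher (3.92 ± 0.35). The beta cell markers INS, IAPP and PDX1 were present in every library, and so was the delta cell hormone SST. Replicates are libraries that the labels list as separate samples, and nothing says that they came from separate cultures, so p-values measure only the spread between these libraries.

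In senescent cells G6PC2 rose about 2.2-fold and ABCC8 rose about 1.3-fold, while the 3′ reads of KCNJ11, SLC2A1 and SLC2A3 differed between the groups by no more than the libraries spread. HK1, HK2 and SLC2A2 had so few reads that they did not reach the limit for testing, a mean normalised read count of 5. The main test was limma on log2(value + 1) with batch and group in the model, over 13847 genes. Called genes are those past a fold of 1.5 whose p, adjusted by Benjamini-Hochberg over the table, was under 0.1. Of the 5 genes of the set that were tested, 1 was called, against 23.4% of all tested genes. It was called higher, against 11.6% of all tested genes, and none was called lower, against 11.8%. At an adjusted p under 0.1 whatever the fold, 2 of the 5 passed, against 45.5% of all tested genes. With 5 genes, 1 gene is 20% of those tested, so these counts are no result about the set as a whole. The median log2 fold change of the 5 was 0.29, and that of all tested genes was 0.01.

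**Figure D1:**
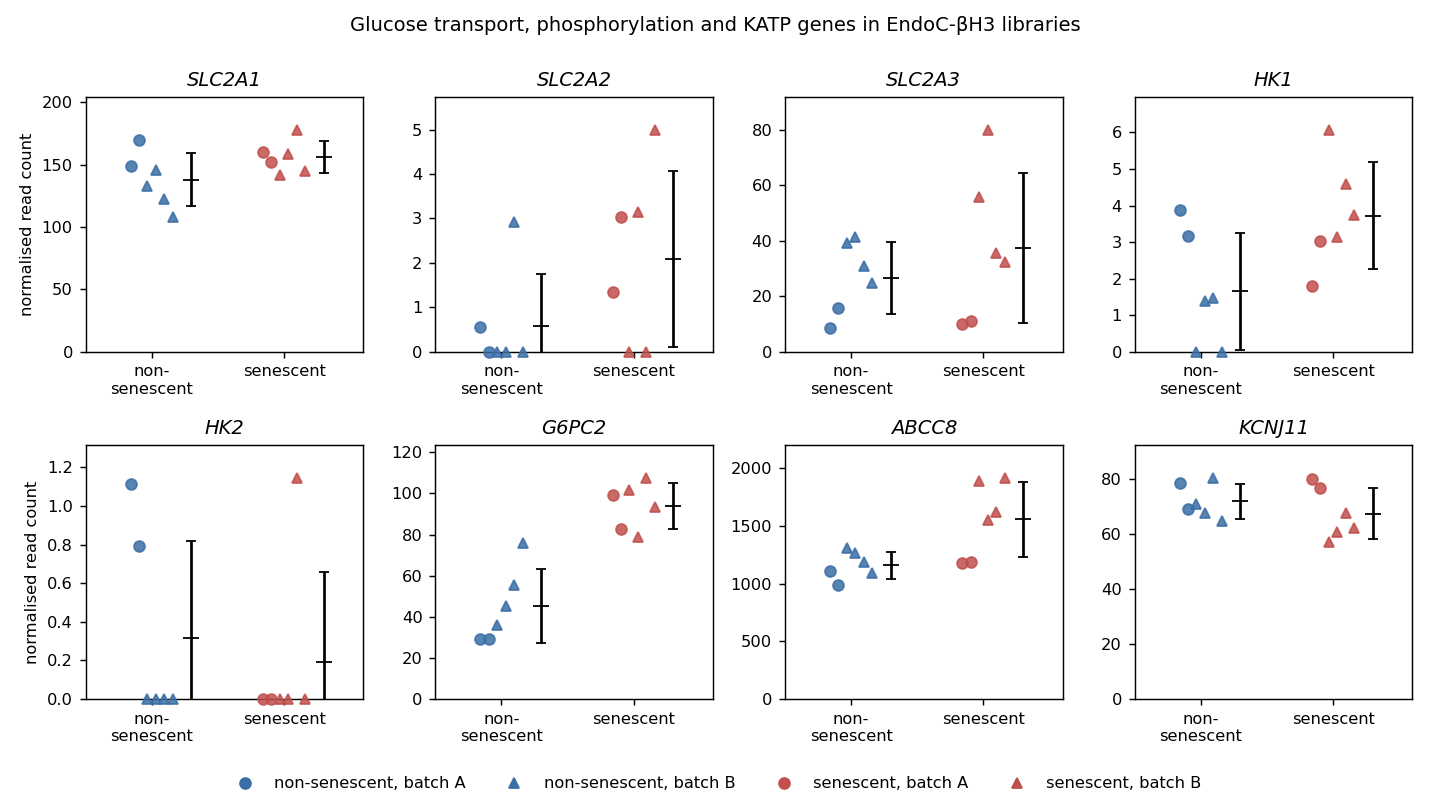
Normalised read count (y axis, linear, from 0, scaled for each gene) of the 8 genes in the 6 non-senescent (blue) and 6 senescent (red) libraries, with circles for batch A, triangles for batch B, and black marks for the mean ± SD. G6PC2 lies at 29.4 to 75.8 in non-senescent and 78.7 to 108 in senescent libraries, while HK1, HK2 and SLC2A2 reach at most 6.06.

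Glucose enters the cell through the transporters. SLC2A1 encodes GLUT1, the widely expressed high-affinity transporter. Its gene lies at chr1:42925353-42958893 on the minus strand (GRCh38). In batch A the normalised read count of SLC2A1 was 149 and 169 in the non-senescent and 160 and 152 in the senescent libraries. In batch B it was 133, 146, 123 and 108 in the non-senescent and 142, 159, 177 and 145 in the senescent libraries. The groups overlapped in both batches, although 2 of the 4 senescent libraries of batch B were above every non-senescent library of that batch. The log2 fold change of SLC2A1 was 0.19 (95% interval -0.06 to 0.43, adjusted p = 0.216 by limma), and its batch values were -0.02 (A) and 0.29 (B).

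SLC2A3 encodes GLUT3, a high-affinity transporter best known from neurons, at chr12:7919230-8019007 on the minus strand. Its level differed between the batches. In batch A its normalised read count was 8.34 and 15.9 in the non-senescent and 9.88 and 10.9 in the senescent libraries. In batch B it was 39.2, 41.3, 30.7 and 24.9 in the non-senescent and 55.7, 79.8, 35.5 and 32.4 in the senescent libraries. Every library of batch B was above every library of batch A, and the groups overlapped within each batch. The log2 fold change of SLC2A3 was 0.29 (95% interval -0.27 to 0.84, adjusted p = 0.424 by limma), and its batch values were -0.14 (A) and 0.50 (B). SLC2A14, a near-identical paralog 28081 bases away on the same chromosome, had 2 reads in all non-senescent and 2 in all senescent libraries. The quantification could divide reads between these paralogs, so their separate values are uncertain.

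SLC2A2 encodes GLUT2, the low-affinity transporter of liver and of rodent beta cells, at chr3:170996347-171026743 on the minus strand. It was close to the limit of detection in these cells. In non-senescent libraries 1 read was found in A1 and 2 in B3, and the other 4 libraries had 0. In senescent libraries there were 3 and 5 reads in batch A, and 0, 3, 0 and 4 in batch B. Reads were thus found in 2 of 6 non-senescent and 4 of 6 senescent libraries, and the groups overlapped in batch B. A count of 0 is compatible with 3 reads at most, or 0.175 to 0.642 ppm of a library. Scaled by size factors, the 15 senescent reads were 4.05 times the 3 non-senescent reads, with a 95% counting interval of 1.14 to 21.8 that covers counting error only and leaves out the spread between libraries. When all genes with reads were tested, the adjusted p of SLC2A2 was 0.269 by limma and 0.279 by edgeR on the recovered reads.

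Transporter use was compared as the change of a ratio within each library, because reads of different genes are not on a common scale of molecules. The log2 ratio of SLC2A3 to SLC2A1 changed by 0.10 ± 0.24 (SE) in senescent cells (exact permutation within batch, two-sided, adjusted p = 0.845 over 5 ratios). The log2 ratio of SLC2A2 to SLC2A1 changed by 0.69 ± 0.62 (adjusted p = 0.484 by the same exact test) and rests on 18 reads of SLC2A2. Neither ratio differed between the groups beyond the spread of the libraries.

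Hexokinases trap glucose as glucose 6-phosphate. HK1 encodes a high-affinity hexokinase of most tissues, at chr10:69269984-69401884 on the plus strand, and HK2 encodes the high-affinity hexokinase of muscle and of many proliferating cells, at chr2:74834127-74893359 on the plus strand. All 12 libraries together held 37 reads of HK1 and 4 reads of HK2.

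HK1 went opposite ways in the batches. In batch A there were 7 and 4 reads in the non-senescent and 4 and 5 in the senescent libraries, or normalised read counts of 3.89 and 3.18 against 1.80 and 3.02. In batch B there were 0, 1, 1 and 0 reads in the non-senescent and 5, 3, 4 and 3 in the senescent libraries, or normalised read counts of 0 to 1.46 against 3.15 to 6.06. The senescent libraries were the lower ones in batch A and the higher ones in batch B, with no overlap in either, and each of these values rests on 7 reads or fewer. Scaled by size factors, the ratio of senescent to non-senescent HK1 reads was 0.644 in batch A (95% counting interval 0.236 to 1.71) and 6.25 in batch B (1.45 to 56.3). Over all libraries it was 1.49 (0.731 to 3.19). When all genes with reads were tested, the adjusted p of HK1 was 0.125 by limma and 0.479 by edgeR.

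HK2 reads were found in 3 of the 12 libraries: 2 and 1 in the non-senescent libraries of batch A, and 1 in the senescent library B3. The remaining 9 libraries had 0 reads. Both groups were at or under the limit that a count of 0 allows, so no fold is given. The log2 ratio of HK2 to HK1 was -1.30 to 0.00 in non-senescent and -2.82 to -1.38 in senescent libraries, a difference of -1.17 ± 0.36 (SE) with an adjusted p of 0.0119 (exact permutation within batch). HK2 had 0 reads in 9 of the 12 libraries, and the ratios of 0.00 in non-senescent B1 and B4 are 0 reads over 0 reads, set by the pseudocount. The value therefore restates the HK1 reads and the pseudocount and is not a measure of the balance of the hexokinases.

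G6PC2 encodes the catalytic subunit of the islet glucose-6-phosphatase, which removes the phosphate that the hexokinases add. The gene lies at chr2:168901291-168910000 on the plus strand and overlaps SPC25 on the other strand. Whether the counting used strand is not given in the sources used here. Of the 8 genes G6PC2 was the only one called. In batch A its normalised read count was 29.5 and 29.4 in the non-senescent and 99.2 and 82.7 in the senescent libraries. In batch B it was 36.1, 45.4, 55.5 and 75.8 in the non-senescent and 102, 78.7, 108 and 93.4 in the senescent libraries. All 6 senescent libraries were above all 6 non-senescent libraries, although the highest non-senescent library, B4, and the lowest senescent library, B2, lay close together. The log2 fold change of G6PC2 was 1.11 (95% interval 0.71 to 1.51, 2.16-fold, adjusted p = 1.8e-04 by limma).

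The rise of G6PC2 was seen in each batch. The log2 fold change was 1.59 ± 0.30 (SE) for the A libraries and 0.87 ± 0.21 for the B libraries, and the difference between the batches was -0.72 ± 0.37 (adjusted p = 0.382, limma batch by group interaction). None of the 5 tested genes of the set passed this test, which 4.21% of all tested genes did. The reads behind G6PC2 numbered 24 to 61 in the non-senescent and 75 to 221 in the senescent libraries.

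Cell type markers changed in both directions. Of the 10 beta cell markers examined, all were tested, 3 were called higher (INS, IAPP and PDX1) and 1, PCSK1, lower (40% called, against 23.4% of all tested genes), and their median log2 fold change was 0.09. Their summed normalised read count was 53460 to 63430 in non-senescent and 106200 to 223400 in senescent libraries, and that of INS alone, which rose 4.70-fold, was 11020 to 34330 against 49680 to 185500. The summed alpha cell markers were 49240 to 124100 in non-senescent and 155000 to 244100 in senescent libraries, with TTR called higher and GCG lower. The delta cell markers were lower in senescent libraries, at 159900 to 287900 against 115200 to 142700, and so were the ductal markers, at 246 to 379 against 80.3 to 162. Among 7 acinar markers only CPA1 passed the limit for testing, and the summed count of the list was 33.9 to 64.6 in non-senescent and 144 to 259 in senescent libraries. In bulk RNA, fewer cells of a type and less RNA per cell cannot be told apart, and the part of these shifts in the rise of G6PC2 was not tested.

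The 3 genes whose batch-centred log2 values followed those of G6PC2 most closely over the 12 libraries, among 11682 genes with a mean of at least 20, were WDR6 (Pearson r = 0.976), ADCY1 (0.973) and ACTR6 (0.963). These correlations include the difference between the groups and are given as a description. ADCY1 encodes an adenylate cyclase, and its own log2 fold change was 0.34.

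The 250 bases before the annotated transcription start of G6PC2, the gene called, are shown with those of SLC2A1, a transporter gene that was not called, as a contrast. Sequences are from RefSeq (GRCh38.p14), 5′ to 3′ in the direction of the gene. Capitals mark matches, on either strand, to TATAAA, the E-box CANNTG, the homeobox core TAAT, the GC box GGGCGG and the core ACGTG, and no marked matches overlap in these windows. The G6PC2 window is chr2:168901041-168901290 on the plus strand and the SLC2A1 window is chr1:42958869-42959118 on the minus strand.
G6PC2: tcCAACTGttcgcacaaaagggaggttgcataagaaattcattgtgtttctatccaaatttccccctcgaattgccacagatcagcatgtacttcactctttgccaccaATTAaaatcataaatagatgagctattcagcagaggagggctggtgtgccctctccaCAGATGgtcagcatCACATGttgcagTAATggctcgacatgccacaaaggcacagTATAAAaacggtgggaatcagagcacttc
SLC2A1: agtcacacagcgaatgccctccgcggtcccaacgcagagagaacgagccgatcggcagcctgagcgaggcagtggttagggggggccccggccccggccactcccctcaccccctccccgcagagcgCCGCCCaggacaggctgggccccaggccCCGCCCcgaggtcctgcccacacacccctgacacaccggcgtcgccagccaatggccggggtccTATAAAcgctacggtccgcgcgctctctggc

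The G6PC2 window held 3 E-boxes, 2 TAAT cores and 1 TATAAA that begins 29 bases before the start. The SLC2A1 window held 2 GC boxes and 1 TATAAA that begins 31 bases before the start, and no E-box or TAAT core. Of 34943 windows of the same length before annotated starts, 10.8% held TATAAA, 61.8% an E-box, 47.5% TAAT, 42.5% GGGCGG and 18.5% ACGTG. The windows also differed in base composition, with 4 CpG dinucleotides and 44.8% GC in G6PC2, against 24 CpG and 72.4% GC in SLC2A1. Windows were found for 5 of the 8 genes, G6PC2, SLC2A1, SLC2A2, HK1 and HK2. TATAAA was found in no window of SLC2A2, HK1 or HK2. SLC2A2, with 2 CpG and 48.8% GC, was like G6PC2 in composition, and both HK2 windows were rich in CpG (34 and 29). HK1 had several windows, which ranged from 0 to 30 CpG and from 45.6% to 74.0% GC. A match is a description of the letters and does not show that a factor binds there.

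KATP channels are built from the pore subunit encoded by KCNJ11 and the sulfonylurea receptor encoded by ABCC8, which senses nucleotides and is the target of sulfonylurea drugs. The genes are neighbours on the minus strand of chromosome 11. KCNJ11 lies at chr11:17365172-17389331 and ABCC8 at chr11:17392498-17476894, with 3166 bases between them. ABCC8 rose in senescent cells and KCNJ11 did not.

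In batch A the normalised read count of ABCC8 was 1108 and 990 in the non-senescent and 1179 and 1192 in the senescent libraries. In batch B it was 1312, 1266, 1187 and 1093 in the non-senescent and 1893, 1550, 1623 and 1919 in the senescent libraries. Within each batch all senescent libraries were above all non-senescent libraries, whereas across batches the senescent libraries of batch A lay inside the non-senescent range of batch B. The log2 fold change of ABCC8 was 0.41 (95% interval 0.23 to 0.58, 1.33-fold, adjusted p = 8.6e-04 by limma), which is under the fold limit of 1.5. The batch values were 0.18 (A) and 0.52 (B), and the interaction test of their difference gave an adjusted p of 0.28 (limma). With 17321 reads in all, ABCC8 rested on more reads than any other gene of the set.

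For 2 of the 5 tested genes, ABCC8 and G6PC2, senescent libraries lay wholly above non-senescent ones in each batch. Of all tested genes, 23.8% had groups apart in this way, in either direction.

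In batch A the normalised read count of KCNJ11 was 78.4 and 69.1 in the non-senescent and 79.9 and 76.7 in the senescent libraries. In batch B it was 70.8, 67.5, 80.4 and 64.6 in the non-senescent and 57.0, 60.9, 67.5 and 62.3 in the senescent libraries. The groups overlapped in both batches, and 3 of the 4 senescent libraries of batch B were below every non-senescent library of that batch. The log2 fold change of KCNJ11 was -0.10 (95% interval -0.37 to 0.18, adjusted p = 0.601 by limma), and its batch values were 0.09 (A) and -0.19 (B). KCNJ11 overlaps 2 genes on the other strand, NCR3LG1 and ENSG00000260196, and whether the counting used strand is not given in the sources used here.

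The balance of the KATP subunit transcripts shifted. The log2 ratio of KCNJ11 to ABCC8 was -3.81 and -3.82 in the non-senescent and -3.87 and -3.94 in the senescent libraries of batch A. In batch B it was -4.19, -4.21, -3.87 and -4.06 in the non-senescent and -5.03, -4.65, -4.57 and -4.92 in the senescent libraries. The senescent libraries had the lower ratio in each batch with no overlap, by 0.09 in batch A, which is close to the spread there, and by 0.71 in batch B. Taking the batches together, the ratio fell by 0.50 ± 0.13 (SE), to 0.706 of its level in non-senescent cells (adjusted p = 0.0119, exact permutation within batch, two-sided, for which the smallest unadjusted p is 0.00476). That adjustment leans on the ratio of HK2 to HK1, which had the same unadjusted p and restates HK1 reads and the pseudocount. The adjusted p of KCNJ11 to ABCC8 was 0.119 when labels were permuted over all 12 libraries without regard to batch. In batch B alone the unadjusted p was 0.0286, the smallest that 4 against 4 libraries allow, and its adjusted value was 0.0714. Whether the shift differed between the batches was not tested.

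**Figure D2:**
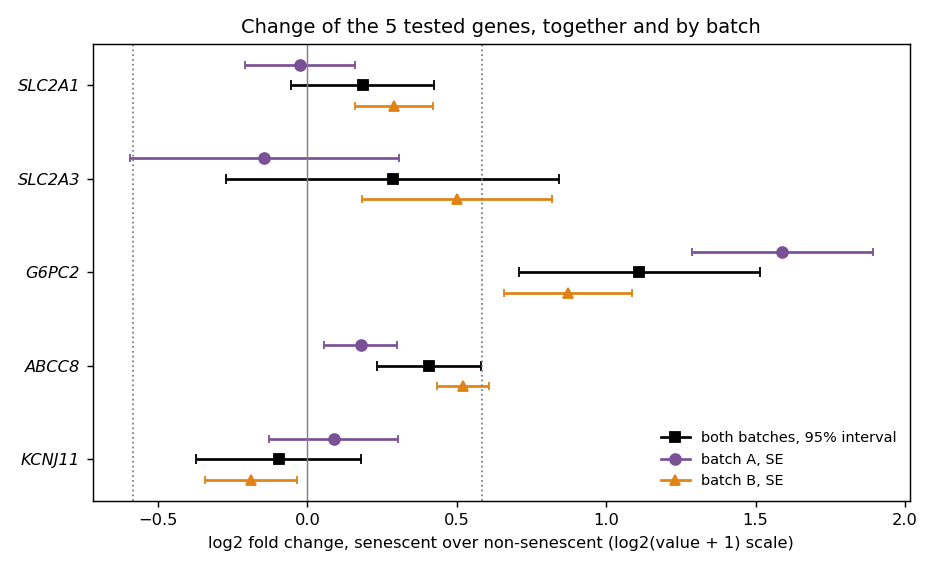
Log2 fold change, senescent over non-senescent (x axis), of the 5 tested genes, with black squares and 95% intervals for both batches, circles (batch A) and triangles (batch B) with SE, and dotted lines at a fold of 1.5. G6PC2 at 1.11 is past the dotted line, ABCC8 at 0.41 is short of it with an interval above 0, and the intervals of SLC2A1, SLC2A3 and KCNJ11 include 0.

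**Figure D3:**
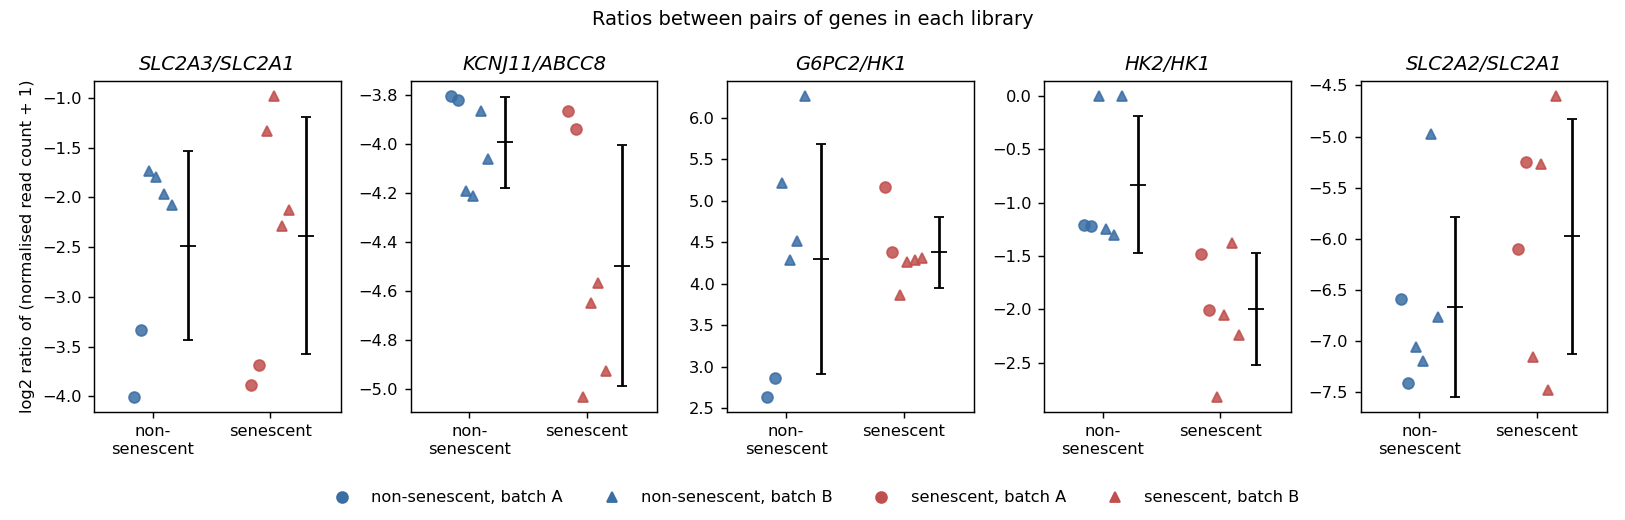
Log2 ratio of (normalised read count + 1) of 5 gene pairs in each library (y axis, scaled for each pair), coloured by group with circles for batch A, triangles for batch B and black marks for the mean ± SD. KCNJ11/ABCC8 is lower in the senescent libraries of batch B (-5.03 to -4.57) than in all others, while the change of G6PC2/HK1 is 2.02 in batch A and -0.89 in batch B.

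Phosphorylation and dephosphorylation were compared through the log2 ratio of G6PC2 to HK1. It changed by 0.08 ± 0.56 (SE) over both batches (adjusted p = 0.909, exact permutation within batch). The change was 2.02 for the A libraries and -0.89 for the B libraries, and it rests on 37 reads of HK1.

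Neighbouring steps of the pathway were examined as lists. Among 15 other glucose and hexose transporter genes 5 were tested, of which 2 were called higher and 0 lower. The called share was 40%, against 23.4% of all tested genes. SLC2A13, which transports myo-inositol with protons, was 148 to 194 in non-senescent and 214 to 359 in senescent libraries (log2 fold change 0.82 ± 0.12, SE, adjusted p = 4.9e-05, limma). SLC5A1, the sodium-glucose cotransporter of the gut, was low, at 1.46 to 11.2 against 3.02 to 30.4, and was called by a narrow margin (adjusted p = 0.098, limma).

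Among 11 other genes of hexose phosphorylation and glucose-6-phosphatase, 6 were tested, 2 were called higher and 0 lower. That is 33.3% of those tested, against 23.4% of all tested genes. SLC37A4 encodes the translocase that carries glucose 6-phosphate into the endoplasmic reticulum, where G6PC2 acts. Its normalised read count was 210 to 366 in non-senescent and 496 to 708 in senescent libraries, with no overlap within or across batches. The log2 fold change of SLC37A4, 1.09 ± 0.08 (SE), was close in size to that of G6PC2 (adjusted p = 1.5e-08, limma). SLC37A1, a related phosphate-linked glucose 6-phosphate carrier, was 33.0 to 79.5 against 101 to 133 (1.01 ± 0.17, adjusted p = 1.9e-04).

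Of 17 glycolysis genes 15 were tested, of which 2 were called higher and 6 lower. Called genes were thus 53.3% of those tested, against 23.4% of all tested genes. The median log2 fold change of those tested was -0.36, against 0.01 for all tested genes. PKLR, the liver-type pyruvate kinase, rose 4.31-fold, but unequally. In batch A it was 100 to 108 in non-senescent and 134 to 140 in senescent libraries, and in batch B 57.2 to 111 against 519 to 720. PFKL, the liver-type phosphofructokinase, was higher by 0.59 ± 0.10 (SE) on the log2 scale, just past the fold limit. ENO2, the neuronal enolase, fell by 1.08 ± 0.09 (SE) on the log2 scale, from 2852 to 2887 down to 1536 to 1731 in batch A and from 865 to 976 down to 341 to 495 in batch B. ENO3, the muscle enolase, fell by 1.09 ± 0.42 from a mean of 11.6 to 5.37 (adjusted p = 0.049, limma). Its groups overlapped in batch A, where the log2 fold change was -0.19, against -1.54 in batch B. The other 4 genes called lower were PFKP, ALDOC, GAPDH and PGAM1, which are named here after their values were seen. Of these, PFKP fell in batch B (log2 fold change -1.32) but not in batch A (-0.01), where its groups overlapped.

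Of 13 other KATP channel and inward rectifier genes 9 were tested, with 1 called higher and 1 lower. Together they were 22.2% of those tested, near the 23.4% of all tested genes. KCNJ16, the gene of an inward rectifier subunit that is not part of the KATP channel, rose 13.8-fold, from 9.64 to 27.8 in non-senescent to 206.5 to 264.5 in senescent libraries (log2 fold change 3.79 ± 0.20, SE, adjusted p = 1.6e-10, limma). KCNJ8, which encodes the other KATP pore subunit, known from vascular muscle, was low and fell, from a mean of 11.2 ± 8.80 to 3.77 ± 3.67 (SD, n = 6 libraries each, adjusted p = 0.034 by limma). KCNJ11 itself kept a normalised read count of 57.0 to 80.4 over the 12 libraries.

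Of 13 calcium channel genes, which act after KATP closure, all 13 were tested, 4 were called higher and 0 lower. This was 30.8% of those tested, against 23.4% of all tested genes. CACNA1H, a T-type channel, rose 2.67-fold, from 138 to 159 up to 550 to 565 in batch A and from 337 to 441 up to 754 to 1003 in batch B. CACNA2D3, an auxiliary subunit, rose from 0 to 5.51 in non-senescent to 7.27 to 17.2 in senescent libraries. Among 5 genes of glucose-responsive transcription 1 was called (20%, against 23.4% of all tested genes). It was ARRDC4, an alpha-arrestin gene induced by glucose (70.2 to 102 against 116 to 241, log2 fold change 1.11 ± 0.14, SE). Of 13 HIF and hypoxia genes 12 were tested, 3 were called higher and 1 lower. NDRG1 rose 7.09-fold and ADM rose 2.51-fold, whereas LDHA, which turns pyruvate into lactate, fell by 2.37 ± 0.17 (SE) on the log2 scale. The groups of ADM lay apart in batch A (40.0 to 46.9 against 190.8 to 197.5). In batch B they overlapped (9.94 to 55.5 against 40.1 to 53.5). The 4 called genes were 33.3% of those tested, against 23.4% of all tested genes, and the third gene called higher, ANKRD37, named here after its values were seen, lost its call under 17 of 26 alternatives.

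**Figure D4:**
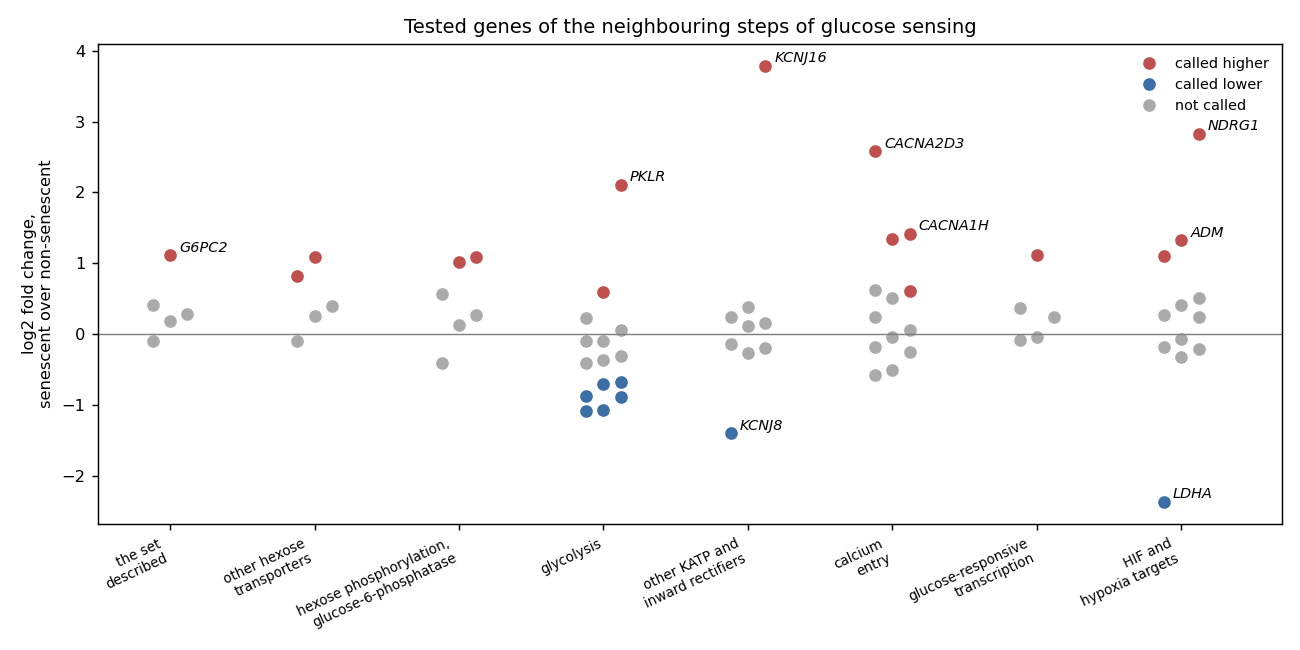
Log2 fold change, senescent over non-senescent (y axis), of each tested gene of the set and of 7 lists of neighbouring pathway steps (x axis), with red points called higher, blue called lower and grey not called. KCNJ16 at 3.79 and NDRG1 at 2.83 are the highest points and LDHA at -2.37 the lowest, and glycolysis has 6 of its 15 tested genes called lower.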

How the data were processed

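Gene expression was measured in 12 EndoC-βH3 samples. Per the labels, the authors used cutadapt, Salmon 0.13.1, the GRCh38 genome and DESeq2. The transcript annotation and the use of molecular identifiers are not given in the sources used here. The deposited values are a signal, reads divided by 1 size factor per sample. Whole reads were recovered (100% of 196021 non-zero values within 0.001). The deposited table also holds 6 columns of the authors' comparison (mean, log2 fold change, its error, a test score, p-value and adjusted p-value), which were not used.

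The title letters A and B were taken as the 2 batches. limma 3.58.1 in R 4.3.3, with the intensity trend, was run on log2(value + 1) for genes with a mean of at least 5. This scale understates the change of low genes. Ratios were tested by exact permutation within batch (420 arrangements), adjusted over 5 ratios, at 0.05. edgeR 4.0.16 and DESeq2 1.42.0 on the recovered reads, other pseudocounts, filters, scalings, a replicate block, single batches and left-out libraries were alternatives. The procedure was tested on simulated data.

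The 8 genes and all lists were chosen with earlier results of these data known. Named from each other list were up to 2 called genes with the largest rise and 2 with the largest fall, and SLC2A14, and for a called gene of the set the 3 genes most like it. Counts cover whole lists, of which not all genes are reported singly. Positions are from GENCODE v44 (GRCh38). Labels and methods give different concentrations of 4-hydroxy tamoxifen. Intervals of reads cover counting error only.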

Additional observations from a re-analysis of the deposited data

Results flagged for a closer look

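HK1 was higher in all senescent libraries of batch B and lower in all senescent libraries of batch A, with no overlap in either batch. The difference of its log2 change, batch B minus batch A, was 2.19, and was not tested because HK1 was under the limit for testing. It rests on 37 reads and, in batch A, on 2 libraries of each group. The counting interval of the batch A ratio, 0.236 to 1.71, includes 1. How many of all genes lay apart in opposite directions in the batches was not counted.

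For a batch by group interaction, only the tested genes of the set and the neighbouring genes chosen by the naming rule were searched here. Of these, PKLR responded more strongly among the B libraries than among the A libraries. The difference was 2.58 ± 0.34 (SE) on the log2 scale (adjusted p = 6.4e-04, limma interaction). CACNA1H differed the other way, with batch B minus batch A at -0.74 ± 0.19 (adjusted p = 0.058, limma interaction). No library of the 5 tested genes, or of their ratios, lay far from the others of its group by Dixon's test.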

How the results depend on the processing

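G6PC2 was called under all 26 alternatives tried, with a log2 fold change of 1.02 to 1.25 when single libraries were left out, and ABCC8, SLC2A1, SLC2A3 and KCNJ11 stayed uncalled under all of theirs. ABCC8 kept an adjusted p of 0.0004 to 0.0027 when single libraries were left out, and had 0.135 in batch A alone. ANKRD37 lost its call under 17 of 26 alternatives, SLC5A1 under 16 of 25 and PFKL under 13 of 26. ENO3 lost its call under 6 of 25, KCNJ8 under 2 of 25 and ADM under 2 of 26. The number of genes called over the table moved from 3237 to 2143 with no batch term. With libraries scaled to equal totals, 1226 genes were called higher and 2090 lower (37.0% higher, against 49.6%) and moved the median log2 fold change of all genes to -0.09, with ABCC8 at 0.30 and G6PC2 at 1.01. The interaction count of 583 was 169 to 743 with single libraries left out, and 261, 175, 183 and 169 without non-senescent A1 and A2 and senescent A1 and A2. The change of the log2 ratio of KCNJ11 to ABCC8 was -0.50 with permutation over all 12 libraries, where its call was lost (adjusted p = 0.119, exact test), -0.71 in batch B alone and -0.50 with the replicate block. That of HK2 to HK1, which the pseudocount sets in part, was -1.49 in batch B alone and -1.17 with the replicate block. In batch B alone and with the replicate block these unadjusted p values were the smallest the designs allow (0.0286 and 0.03125, exact tests), and adjustment over 5 ratios put them past 0.05 (0.0714 and 0.0781), so these values say nothing about stability. The replicate block paired libraries of the same number, which share only a number, since their deviations correlated by -0.05 to 0.02. The causes of the moved counts were not tested. Batch A alone allows no p under 0.333 for a ratio. Depth limits HK1, HK2 and SLC2A2, for which 0 reads allow up to 3.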
